A study of Homo sapiens with 18 samples.

Results

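The genes described here encode the nuclear subunits of the mitochondrial respiratory chain and of the ATP synthase, measured in the human bladder cancer cell lines J82 and RT112 with and without palbociclib. They were chosen by symbol alone: a gene was taken where a transcript cluster (the array's probe set for 1 transcript region) carried exactly 1 symbol of the NDUF, SDH, UQCR, COX4 to COX8 or ATP5 families, pseudogenes left out. This gave 73 of the 22465 genes tested, with 31 in complex I, 3 in complex II, 7 in complex III, 14 in complex IV and 18 in complex V. J82 and RT112 are established lines. Each was grown in 3 dishes with PBS as the control and in 3 dishes with palbociclib at its IC50, a drug that blocks the kinases CDK4 and CDK6 and with them entry into S phase. No genotype, exposure time or dose in molar units is given in the labels, which call each sample the transcriptome of a pool of cells. Total RNA of each dish was read on 1 whole-transcript array. The 12 arrays make 4 groups of 3. The question set by the design was which transcripts differ between treated and untreated cells of a line.

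Not every subunit could be followed. UQCRH, COX7C, NDUFB8, ATP5MK, NDUFS8, NDUFC2, NDUFA13 and COX6B2 share their probe set with another symbol and were not analysed here, nor were SDHB, UQCRFS1 and the 13 subunits encoded in mitochondrial DNA. UQCRHL and ATP5MGL are near-identical copies of UQCRH and ATP5MG, so their signal may hold that of the partner and their values are uncertain. ATP5IF1, an inhibitor of the ATP synthase rather than a subunit, is counted with complex V because its symbol matches.

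Complex I takes electrons from NADH and complex II takes them from succinate, which makes complex II also an enzyme of the tricarboxylic acid cycle. Both pass them through coenzyme Q to complex III, which hands them to cytochrome c, and complex IV passes them on to oxygen. Complexes I, III and IV pump protons across the inner mitochondrial membrane, and complex V, the ATP synthase, lets them flow back and makes ATP. Most subunits are encoded in the nucleus, and the factors NRF1, GABP (an ETS family factor) and YY1 are known to bind the promoters of many of them.

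Row names held for both lines, whose means correlated at 0.94 across transcript clusters. Those of a further line, 5637, correlated with them at 0.03 on the same rows and its arrays were not used. Values are deposited log2 signals that reach 19.93, beyond the 16 that a 16-bit scan allows, so a log2 difference is a difference on the deposited scale and not a fold change of RNA. The number of arrays limits the precision. RT112 palbociclib replicate 1 stood apart: its median over all rows was 5.21 against 4.83 and 4.80 in its partners, and the lowest correlation within that group was 0.983 against 0.990 or more in the other groups. RT112 counts and the RT112 values of named genes that passed or changed call are therefore also given without it. J82 palbociclib replicate 3 was shifted less, with a median over all rows of 4.92 against 4.84 and 4.81 in its partners. Leaving out that J82 array moved the J82 calls over all genes from 1213 higher and 624 lower to 662 and 650. The J82 values below include it. As a check of the treatment, all 10 listed E2F-driven S phase genes fell in RT112, by a median log2 difference of -3.14 (-3.08 without replicate 1). In J82 2 of 10 passed the threshold, both lower (CCNA2 and MKI67, -0.97 and -1.40), but the list showed no common fall. Its J82 median was 0.09, with 6 positive and 4 negative differences. Of 10 urothelial and epithelial markers, all lay above the array's median gene in both RT112 groups and in untreated J82, and 8 in treated J82, where EPCAM and CDH1 did not. Their mean level was 7.91 to 8.24 in untreated J82, 7.43 to 7.69 in treated J82 and 10.6 to 11.1 over the 6 RT112 arrays. The 4 endothelial and 4 muscle markers were below the median gene in every group, as were the 4 leukocyte markers apart from CD14 in treated J82, and of 5 fibroblast markers 4 were above it in untreated J82, 3 in treated J82 and 2 in each RT112 group. The part of these shifts in the results below was not tested. The level of a gene is a mean over all cells of a dish, so fewer cells with a transcript and less transcript per cell cannot be told apart.

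The 73 genes were for the most part well expressed. On all 12 arrays 66 of them lay above the median gene of the array. Another 5 lay below it on every array, at levels of 3.46 to 4.90: COX4I2, COX6A2, COX7A1, COX7B2 and COX8C, the lung, muscle and testis forms of complex IV subunits. None of these 5 passed the test in any comparison, and their log2 differences ran from -0.22 to 0.08 in J82 and from -0.10 to 0.07 in RT112.

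Palbociclib left most of the family without a call in either line. In J82 2 of 73 genes rose (2.74%) and none fell, where 8.18% of all 22465 genes were called (5.4% higher, 2.78% lower; limma, adjusted p under 0.05 over all genes, two-sided). In RT112 1 rose and 4 fell (5 of 73, 6.85%), where 8.48% of all genes were called (4.95% higher, 3.53% lower). The share of the family past the threshold was thus below that of all genes in J82 and near it in RT112. All genes include many dim ones, while most of the family lay above the median gene. In a fit of the 11232 brighter genes alone, 1427 were higher and 715 lower in J82. In RT112 1309 were higher and 887 lower in that fit. The background share was thus larger among brighter genes. All 5 RT112 calls were lost in each of the fits that left out RT112 control 1, control 2, palbociclib 2 or palbociclib 3, and without control 3 COX5A alone passed. The median log2 difference over the 73 genes was 0.08 in J82 against 0.04 over all genes, and -0.01 in RT112 against 0.04. Treated and untreated arrays did not overlap for 21 of the 73 genes in J82, 15 higher and 6 lower (all genes 23.9%, with 16.1% higher and 7.82% lower), and for 12 in RT112, 4 higher and 8 lower (all genes 22.8%, with 14.5% higher and 8.26% lower). In the plot of responses by complex most genes lie within 0.5 of 0.

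**Figure D1:**
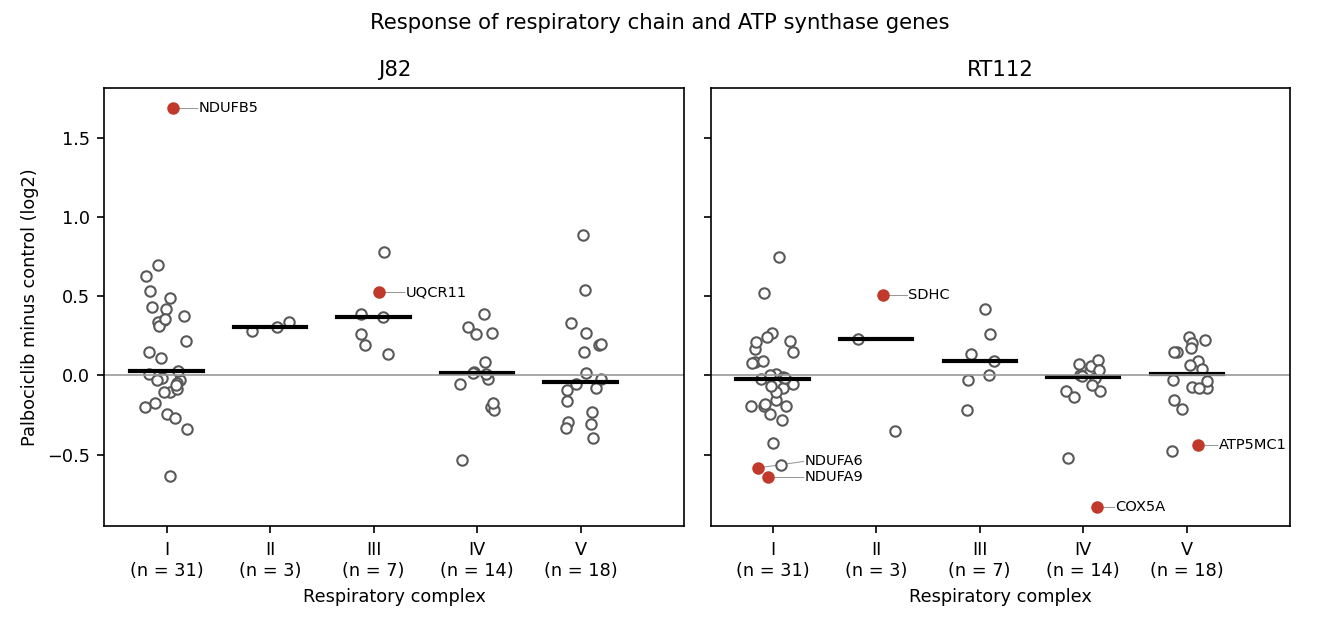
Log2 difference, palbociclib minus control, for each of the 73 genes (circles) by complex in J82 (left) and RT112 (right). Black bars are medians, and filled red circles are genes past the threshold (limma, adjusted p under 0.05 over 22465 genes). NDUFB5 lies alone at 1.69 in J82, and most other genes lie between -0.5 and 0.5.

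NDUFB5, an accessory subunit of the membrane arm of complex I, had the highest log2 difference of the family in J82. Its log2 signal was 7.20, 7.84 and 7.09 in untreated J82 and 8.51, 9.30 and 9.39 under palbociclib. All 3 treated arrays lay above all 3 controls. The log2 difference was 1.69 ± 0.28 (SE from limma, n = 3 arrays a group), with an adjusted p of 0.00201. In RT112 the arrays read 7.95, 7.63 and 8.15 without and 8.16, 9.04 and 8.77 with the drug. These groups did not overlap either, though by a margin of 0.01 between replicate 1 and the highest control. The RT112 difference of 0.74 ± 0.28 missed the threshold (adjusted p = 0.140), and without replicate 1 it was 0.99 with an adjusted p of 0.0455. The 2 responses were not shown to differ (RT112 minus J82 -0.94 ± 0.39, adjusted p = 0.264).

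UQCR11, a small subunit of complex III, was the other gene that rose in J82. It read 5.83, 6.26 and 5.80 in untreated and 6.50, 6.39 and 6.58 in treated J82, a log2 difference of 0.53 ± 0.14 (adjusted p = 0.0333). In RT112 the values were 6.53, 6.45 and 6.44 against 6.90, 6.69 and 7.09, a difference of 0.42 ± 0.14 that missed the threshold (adjusted p = 0.0926; 0.41 without replicate 1). The groups did not overlap in either line. The J82 call was lost in 8 of the 12 fits that each left out 1 array.

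NDUFA6 was the 1 gene of the family whose response differed between the lines past the threshold, with a lower response in RT112, where 4.57% of all genes did (1.83% higher, 2.74% lower). It is an accessory subunit of the matrix arm of complex I, near the site where coenzyme Q binds. In J82 its log2 signal was 8.77, 8.61 and 8.48 in the controls and 9.17, 8.90 and 9.10 under the drug. In RT112 it was 9.48, 9.16 and 9.22 in the controls and 8.87, 8.61 and 8.63 under the drug. Treated arrays lay above all controls in J82 and below all controls in RT112, a pattern of opposed, non-overlapping groups that 1.6% of all genes had and that no other member had. The RT112 fall of 0.58, a log2 difference of -0.58 ± 0.15, passed the threshold (adjusted p = 0.0246), the J82 difference of 0.43 ± 0.15 did not (adjusted p = 0.0982), and the difference between the responses was -1.02 ± 0.21 (adjusted p = 0.0113). Without RT112 palbociclib replicate 1 the RT112 difference was -0.67 and that between responses -1.10, both past the threshold. Untreated RT112 started 0.67 ± 0.15 above untreated J82 (adjusted p = 0.00318), and the treated groups stood in the reverse order.

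The other genes that fell in RT112 belong to complexes I, IV and V. NDUFA9, a matrix arm subunit of complex I that helps to hold that arm to the membrane, read 11.94, 11.97 and 11.87 without and 11.37, 11.21 and 11.27 with palbociclib (-0.64 ± 0.16, adjusted p = 0.0191). All treated arrays lay at least 0.49 below the lowest control. In J82 the same gene gave 11.78, 11.97 and 11.67 against 11.85, 11.58 and 11.94, groups that overlap. COX5A, a nuclear-encoded subunit of complex IV, read 11.69, 11.50 and 11.11 in RT112 controls and 10.86, 10.22 and 10.74 under the drug (-0.83 ± 0.23, adjusted p = 0.0414). J82 gave 11.36, 11.39 and 11.08 against 11.50, 10.74 and 10.99 for COX5A, again with overlap. ATP5MC1, 1 of 3 genes for the same ring protein through which protons pass in the ATP synthase, read 7.59, 7.68 and 7.66 in RT112 controls and 7.15, 7.21 and 7.24 under the drug (-0.44 ± 0.13, adjusted p = 0.0464). In J82 its treated arrays (7.38, 7.33 and 7.40) also lay below the controls (7.90, 7.69 and 7.44), with a difference of -0.31 ± 0.13 that missed the threshold (adjusted p = 0.181). In the RT112 calls, NDUFA6 and NDUFA9 each missed the threshold in 6 of 23 alternative settings, SDHC in 10, COX5A in 11 and ATP5MC1 in 13. The other ring genes, ATP5MC2 and ATP5MC3, had log2 differences of 0.09 and 0.06 in RT112.

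SDHC, 1 of the 2 membrane anchors of complex II, was the gene that rose in RT112. Its log2 signal was 7.44, 7.55 and 7.36 in controls and 7.75, 8.02 and 8.10 under the drug, a difference of 0.51 ± 0.14 (adjusted p = 0.0384). In J82 it was 7.53, 7.82 and 7.52 against 7.82, 7.88 and 8.09, a difference of 0.31 ± 0.14 (adjusted p = 0.246). Treated arrays lay above the controls in both lines, in J82 by only 0.004. The plot of array values shows these genes side by side with SDHD, the other anchor.

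**Figure D2:**
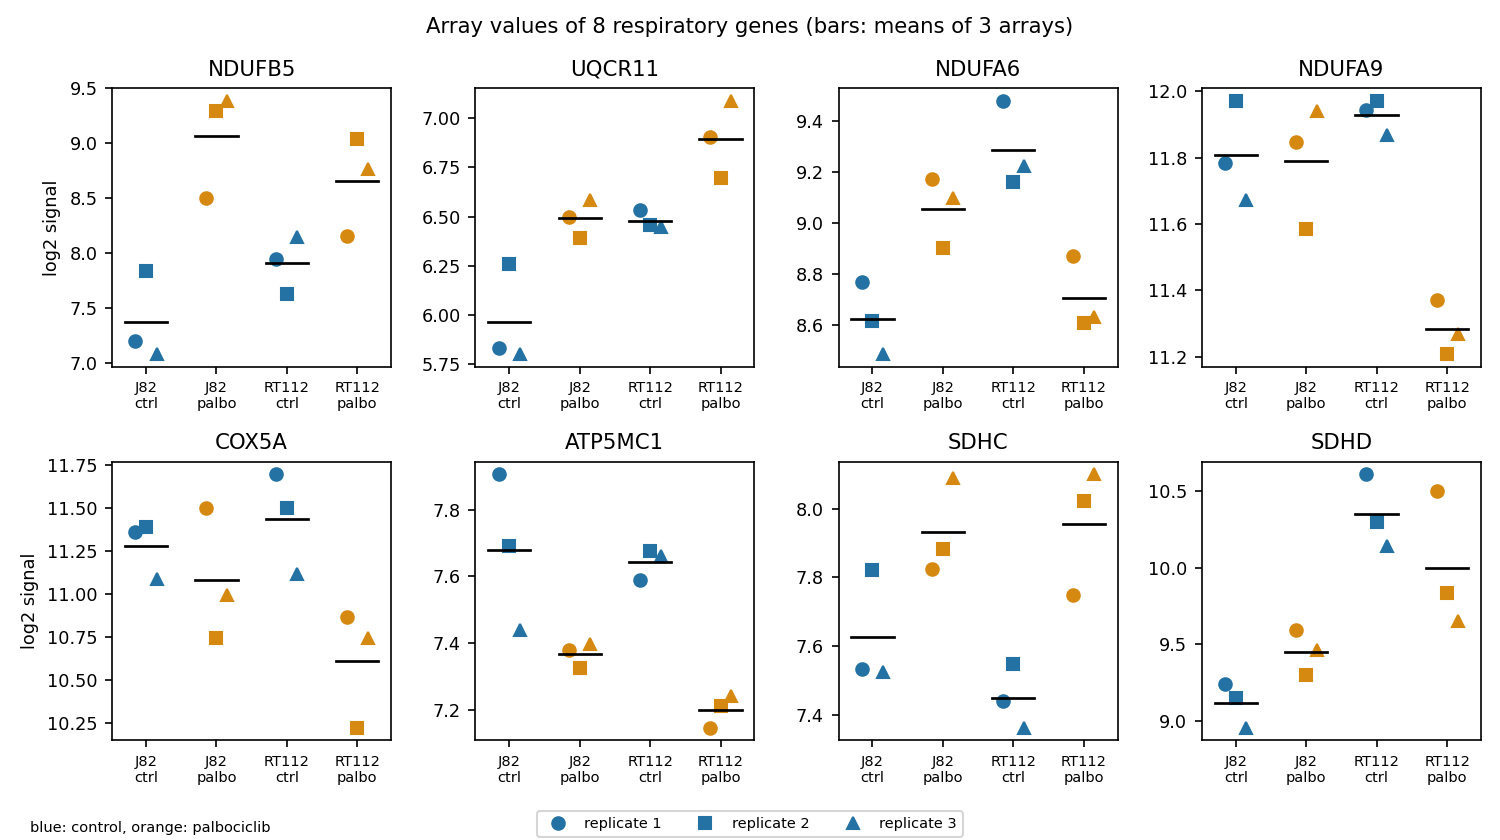
Deposited log2 signal of 8 genes on each of the 12 arrays, by line and treatment. Blue marks are control and orange marks palbociclib, circles, squares and triangles are replicates 1, 2 and 3, and black bars are means of 3 arrays; axes do not start at 0. NDUFA6 lies above its controls in treated J82 and below them in treated RT112.

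Genomic sequence just before the start sites is shown for UQCR11, NDUFA9 and NDUFA6, which moved in different ways, to set their promoters beside each other. RefSeq promoters (GRCh38.p14) were at hand for 59 of the 73 genes. Each line gives the 250 bases before the start, 5′ to 3′ on the strand of the gene, and capitals mark matches on either strand to the NRF1 motif (GCGCA, any base, then GCGC) or CCGGAAG (ETS family).
UQCR11 (chr19:1605463-1605712, minus strand): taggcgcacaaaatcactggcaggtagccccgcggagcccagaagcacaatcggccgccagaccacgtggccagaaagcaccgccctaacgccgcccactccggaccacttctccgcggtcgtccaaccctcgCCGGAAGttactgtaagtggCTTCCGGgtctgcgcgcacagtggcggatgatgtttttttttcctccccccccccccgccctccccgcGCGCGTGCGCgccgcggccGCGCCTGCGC
NDUFA9 (chr12:4648864-4649113, plus strand): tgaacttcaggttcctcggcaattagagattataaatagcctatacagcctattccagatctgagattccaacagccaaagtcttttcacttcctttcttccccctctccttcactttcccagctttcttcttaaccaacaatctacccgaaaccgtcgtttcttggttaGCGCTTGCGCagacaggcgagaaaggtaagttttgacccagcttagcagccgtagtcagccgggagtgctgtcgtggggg
NDUFA6 (chr22:42090773-42091022, minus strand): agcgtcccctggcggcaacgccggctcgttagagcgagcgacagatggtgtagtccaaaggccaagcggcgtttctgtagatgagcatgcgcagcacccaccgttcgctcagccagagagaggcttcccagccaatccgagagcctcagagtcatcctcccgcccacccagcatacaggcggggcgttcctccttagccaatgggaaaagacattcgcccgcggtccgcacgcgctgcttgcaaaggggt
The UQCR11 stretch holds 2 NRF1 matches and 2 ETS matches, that of NDUFA9 holds 1 NRF1 match, and that of NDUFA6 holds neither. A YY1 match (AANATGGCG) begins 11 bases after the start in NDUFA9 and 26 bases after it in NDUFA6, outside the bases printed. In the 300 bases around the start (250 before and 50 after), the NRF1 letters were found in 16 of 59 members (27.1%) against 5.78% of 35116 promoters. The ETS letters were found in 17 members (28.8% against 10.3%) and the YY1 letters in 13 (22.0% against 3.19%). Among promoters of tested genes alone the shares were 7.32% for NRF1, 12.4% for ETS and 4.2% for YY1. The searches covered both strands, and the NRF1 letters read nearly the same on both. At least 1 of the 3 motifs was in 36 members (61.0%) against 17.1% of all promoters and 21.2% of the 21181 promoters of tested genes. ATP5MC1 and COX5A, which also fell in RT112, had no match in the same window. A match is a run of letters, not a shown binding site, and no binding was measured in these data.

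By complex, the responses were small and mixed. In J82 the 7 complex III genes all had positive log2 differences, from 0.13 (UQCRQ) to 0.78 (UQCRC1), with a median of 0.37 (0.32 after a shift of all arrays to one median), but only UQCR11 passed the threshold. UQCRC1, a core protein of the complex, read 9.29, 9.48 and 9.00 in untreated J82 and 9.57, 10.13 and 10.42 under the drug (0.78 ± 0.26, adjusted p = 0.0841). The 3 complex II genes had differences of 0.28 to 0.34 in J82, none past the threshold. The medians of the larger complexes in J82 were close to 0: 0.03 for complex I (range -0.63 for NDUFS5 to 1.69 for NDUFB5), 0.01 for complex IV (-0.54 for COX7B to 0.39 for COX4I1) and -0.04 for complex V (-0.39 for ATP5PO to 0.89 for ATP5F1B, the catalytic beta subunit, adjusted p = 0.251).

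In RT112 the medians were -0.02 for complex I, 0.23 for complex II, 0.09 for complex III, -0.01 for complex IV and 0.01 for complex V. The ranges were -0.64 (NDUFA9) to 0.74 (NDUFB5), -0.35 (SDHD) to 0.51 (SDHC), -0.22 (UQCR10) to 0.42 (UQCR11), -0.83 (COX5A) to 0.10 (COX6C) and -0.48 (ATP5MGL) to 0.24 (ATP5F1B) in the same order. Within complex I both falls came from the 6 measured genes of the quinone-binding module, NDUFA6 and NDUFA9. None of the 8 genes of the NADH-binding module passed in either line, with median differences of 0.24 in J82 and 0.04 in RT112 (0.06 without replicate 1). The 13 measured genes of the proximal membrane arm held 1 call, NDUFB5 in J82, and without RT112 palbociclib replicate 1 also NDUFB5 and NDUFB1 in RT112. The modules differ in size and no test compared them.

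Leaving out RT112 palbociclib replicate 1 raised the number of members called in RT112 from 5 to 8 (11.0%), while the share over all genes rose to 13.2%. NDUFB5 (0.99) and SDHC (0.61) were then higher, and COX7B (-1.14), COX5A (-0.96), NDUFA9 (-0.69), NDUFB1 (-0.69), NDUFA6 (-0.67) and SDHD (-0.60) were lower. ATP5MC1 no longer passed. COX7B, a small subunit of complex IV, is an example. It read 11.57, 11.74 and 10.65 in RT112 controls and 12.03, 10.17 and 10.19 under the drug, so that replicate 1 lay above every control and its partners below every control. Over the 73 genes replicate 1 lay above both partners in 41, below both in 19 and between them in 13. The median of complex II in RT112 went from 0.23 to 0.46 and that of complex III from 0.09 to 0.19, while those of complexes I, IV and V went to -0.07, -0.08 and -0.03. The same omission changes the shared error estimate, so that 4 genes passed in J82 (NDUFA5, NDUFB5, NDUFV1 and UQCR11; all genes 10.8%) and 2 for the difference between lines (NDUFA6 and SDHD; all genes 6.75%).

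**Figure D3:**
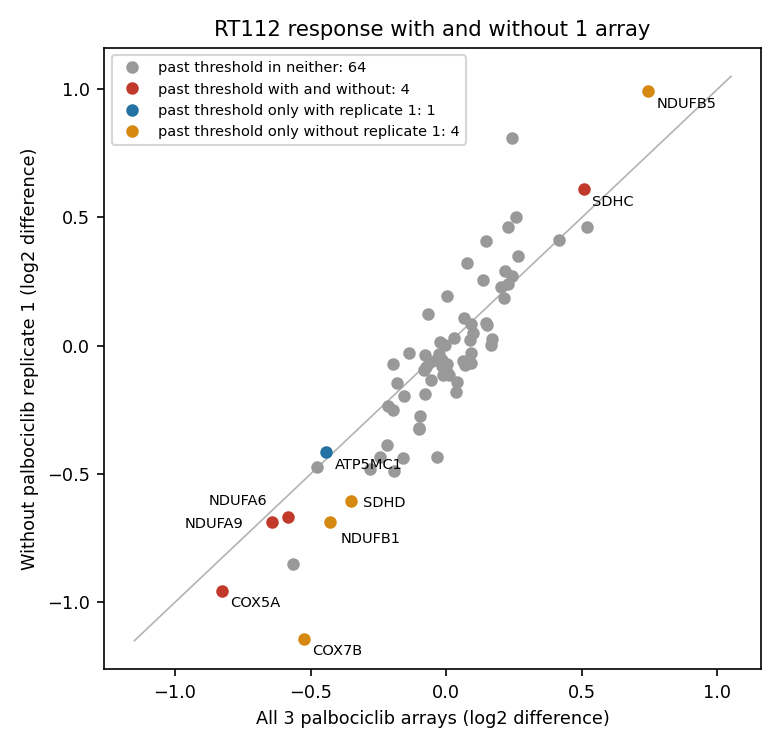
Log2 difference, palbociclib minus control, of the 73 genes in RT112 with all 3 treated arrays (x) and without palbociclib replicate 1 (y). The line marks equal values, and colours show whether a gene passed the threshold (limma, adjusted p under 0.05) in both fits, in 1 of them or in neither. Of the genes past the threshold, 4 passed in both fits, 1 passed with all arrays alone and 4 passed without the array alone.

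Besides SDHC, 2 further subunits of complex II were measured, and SDHB was not analysed here. SDHA, the subunit that carries the flavin and oxidises succinate, read 9.22, 9.37 and 9.36 in untreated and 9.24, 9.73 and 9.82 in treated J82, and 7.57, 7.52 and 7.68 against 7.34, 8.13 and 7.97 in RT112. Neither difference passed the threshold (0.28 in J82 and 0.23 in RT112, each ± 0.20; 0.46 in RT112 without replicate 1, adjusted p = 0.102). SDHD, an anchor like SDHC, read 9.24, 9.15 and 8.96 against 9.60, 9.30 and 9.46 in J82 and 10.61, 10.30 and 10.14 against 10.50, 9.84 and 9.65 in RT112. Its J82 difference was 0.34 and its RT112 difference -0.35 (adjusted p = 0.460 and 0.452), and the RT112 groups overlap because of replicate 1.

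More genes of the family differed between the untreated lines than passed the threshold for the drug. Between controls 23 of 73 genes passed the threshold (31.5%), 16 higher and 7 lower in RT112, where 27.5% of all genes did (12.8% higher, 14.7% lower). Control arrays did not overlap for 39 genes of the family, 26 higher and 13 lower, against 51.6% of all genes (29.2% higher and 22.4% lower). The median log2 difference was 0.10 for the family and 0.05 for all genes. The family thus had about the share of calls of all genes, with more of them on the higher side. In the fit of the 11232 brighter genes alone, 2556 were higher and 3104 lower in RT112, a larger share than over all genes.

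The control difference with the largest size among the 73 genes was that of SDHA, whose controls read 9.22, 9.37 and 9.36 in J82 and 7.57, 7.52 and 7.68 in RT112 (RT112 minus J82 -1.73 ± 0.20, adjusted p = 1.1e-05). SDHD, in the same complex, went the other way, from 9.24, 9.15 and 8.96 to 10.61, 10.30 and 10.14 (1.23 ± 0.21, adjusted p = 0.000373). These subunits of 1 enzyme thus lay on opposite sides, each with no overlap between lines. COX6B1, a complex IV subunit on the side that faces cytochrome c, was lower in RT112, at 11.48, 10.80 and 10.74 in J82 and 9.94, 9.88 and 9.61 in RT112 (-1.20 ± 0.28, adjusted p = 0.00448). NDUFV2, an iron-sulfur subunit where NADH is oxidised, was also lower (9.92, 9.83 and 9.52 against 9.17, 8.91 and 8.64, -0.85 ± 0.23, adjusted p = 0.0105). NDUFA2 and ATP5F1A, the alpha subunit of the ATP synthase head, were each lower by 0.64 on the log2 scale, with adjusted p of 0.0411 and 0.0428. NDUFV1 and ATP5MC2 made up the other lower genes.

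On the higher side, ATP5PO, part of the stalk that holds the head of the ATP synthase still, read 7.43, 7.16 and 7.23 in J82 and 8.90, 8.99 and 8.76 in RT112 (1.62 ± 0.17, adjusted p = 4e-06). Of the 4 stalk genes 3 were higher in RT112 (ATP5PO, ATP5PF and ATP5PB), and none of the 4 passed for the drug in either line. Complex III had 4 of 7 genes higher in untreated RT112 and 7 of 7 positive differences, from 0.10 to 1.28 with a median of 0.55. Among them UQCR10, a small subunit, read 9.28, 8.61 and 8.35 in J82 and 10.25, 10.19 and 9.61 in RT112 (1.28 ± 0.29, adjusted p = 0.00367). UQCRC1 read 9.29, 9.48 and 9.00 against 10.41, 10.21 and 10.80 (1.22 ± 0.26, adjusted p = 0.00211). ATP5MGL was higher by 1.15 ± 0.17 (adjusted p = 0.000112), with the reserve given above for copies. The other higher genes were NDUFA5, NDUFA6, NDUFA10, NDUFB10, NDUFV3, UQCRB, UQCR11, COX7A2 and ATP5MJ.

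**Figure D4:**
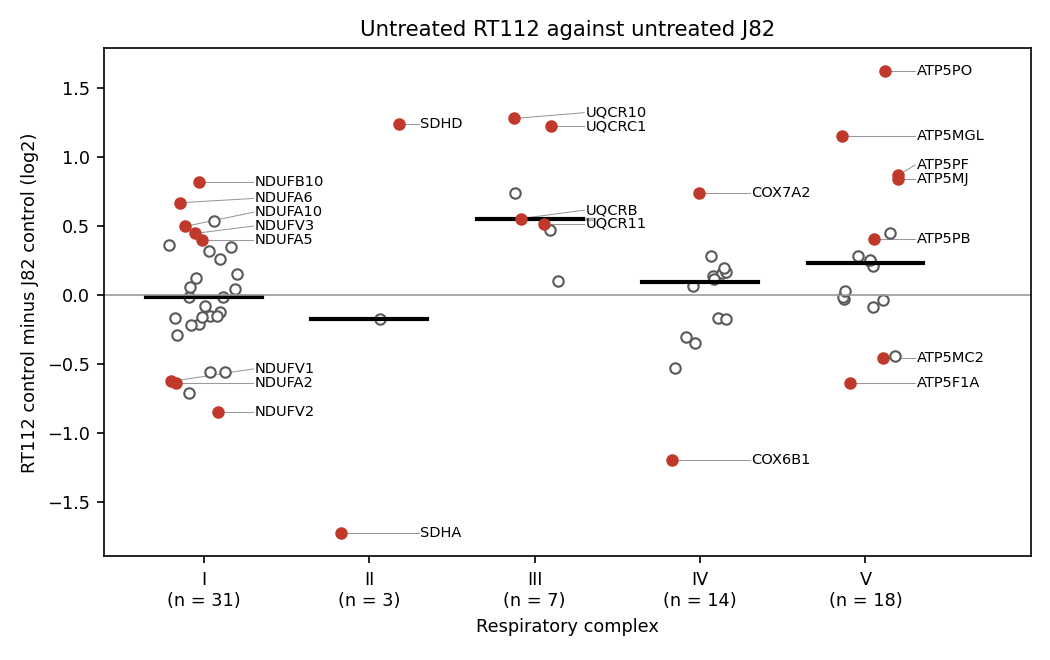
Log2 difference, RT112 control minus J82 control, for each of the 73 genes by complex. Black bars are medians, and filled red circles with names are the 23 genes past the threshold (limma, adjusted p under 0.05 over 22465 genes). SDHA at -1.73 and SDHD at 1.23 stand at opposite sides of complex II, and all 7 complex III genes lie above 0.

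Within groups, many genes of the family deviated together from array to array. The pattern was looked for after the values had been seen, and it is given as a description. Each value was set against the mean of its own group. Then 1 shared component held 58.7% of the variance of the 73 genes over the 12 arrays. The first component of all genes held 37.4% of theirs. No gene set of like size and level was compared, so the larger share is not shown to be particular to the family. At one end stood ATP5F1B, NDUFB5, UQCRC1, SDHA and ATP5F1A, and at the other COX7B, UQCRHL, NDUFA11, NDUFB6 and NDUFS5, small subunits of complexes I, III and IV. In J82 under palbociclib, for example, ATP5F1B deviated by -0.59, 0.21 and 0.38 from its mean on replicates 1, 2 and 3, and NDUFS5 by 0.49, -0.61 and 0.12. In RT112 under palbociclib the deviations were -1.13, 0.57 and 0.56 for ATP5F1B and 1.24, -0.63 and -0.61 for COX7B. The array score of the component was positive for replicate 1 in each of the 4 groups. It was 0.24 in untreated and 0.35 in treated J82, and 0.19 in untreated and 0.57 in treated RT112. The first component of all genes was also positive for replicate 1 in each group, at 0.02, 0.17, 0.04 and 0.78 in the same order. A positive score on replicate 1 was thus not particular to the family. The sign of each component was set by RT112 palbociclib replicate 1. Replicate 1 was the highest array in all 4 groups for 13 of the 73 genes (17.8%), NDUFA6, SDHD, UQCR10 and COX6B1 among them, against 2.06% of all genes.

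**Figure D5:**
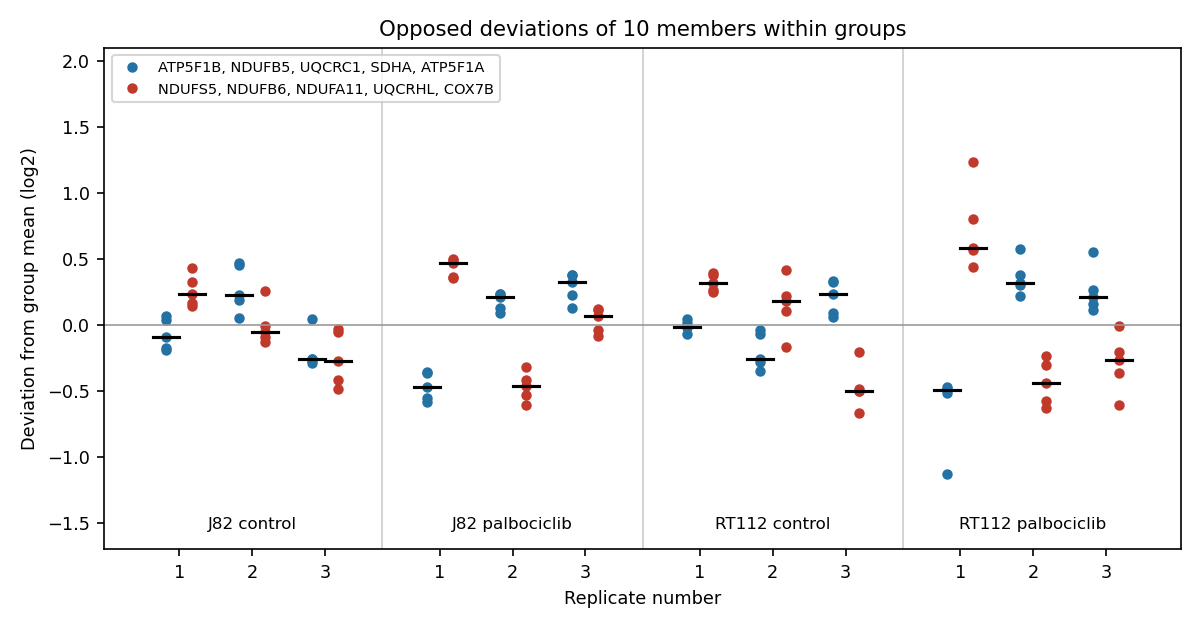
Deviation of log2 signal from the mean of the own group, on each of the 12 arrays, for the 5 genes at either end of the shared component (blue and red circles), with black bars at their medians. The medians of the 2 sets lie on opposite sides of 0 on 10 of 12 arrays. On replicate 1 of both palbociclib groups every blue circle is below 0 and every red circle above it. The genes were picked as the ends of the component from these same values, so opposed sides follow largely from the choice.

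NDUFB5 lies on this axis, with deviations between -0.56 and 0.47 over the 12 arrays. The 5 genes of its end had a median log2 difference of 0.78 in J82 (SDHA 0.28, ATP5F1A 0.33, UQCRC1 0.78, ATP5F1B 0.89 and NDUFB5 itself) and 0.24 in RT112, and those of the other end -0.27 and -0.19. The part of this shared deviation in the J82 response was not tested. The axis ran from -1.43 (ATP5F1B) to 1.75 (COX7B). Of the other members called for the drug, UQCR11, ATP5MC1 and SDHC lay near its middle, at 0.06, 0.06 and -0.17. NDUFA9 and NDUFA6 lay at 0.21 and 0.34, and COX5A lay further toward the COX7B end, at 0.72.

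Genes that build or feed the chain were followed as lists of their own, none of whose genes is among the 73. Of 15 complex I assembly factors, 2 rose in J82 (13.3%, all genes 8.18%) and 1 in RT112 (6.67%, all genes 8.48%). Without RT112 palbociclib replicate 1, 4 passed in J82, all higher, and 4 in RT112, 3 higher and 1 lower (NDUFAF4, -1.18), where 10.8% and 13.2% of all genes passed. TMEM126B, a factor for the membrane arm, read 8.78, 9.00 and 8.54 against 9.68, 9.76 and 10.15 in J82 (1.09 ± 0.19, adjusted p = 0.00246) and 7.79, 7.55 and 7.60 against 7.98, 8.29 and 8.59 in RT112 (0.64 ± 0.19, adjusted p = 0.0493; 0.79 without replicate 1). All treated arrays were above the controls in both lines. NDUFAF5 was the other gene, at 0.51 ± 0.12 in J82 (adjusted p = 0.0138). None of the 4 complex II or 6 complex III assembly factors passed in either line.

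Of 22 measured complex IV assembly factors, 2 rose and 1 fell in J82, and 1 rose and 1 fell in RT112 (13.6% and 9.09%, against 8.18% and 8.48% of all genes). The RT112 share is near that of all genes. Without replicate 1 the counts were 4 in J82 and 3 in RT112, where 10.8% and 13.2% of all genes passed. COA5 rose in both lines, by 1.09 ± 0.20 in J82 (adjusted p = 0.00420) and 1.12 ± 0.20 in RT112 (adjusted p = 0.00293; 1.28 without replicate 1). CMC2 read 10.71, 10.17 and 10.28 in RT112 controls and 8.78, 9.02 and 9.27 under the drug, a fall that passed the threshold (-1.36 ± 0.20, adjusted p = 0.000539; -1.24 without replicate 1), and in J82 it gave -0.06 ± 0.20. The difference between those responses passed as well (-1.30 ± 0.28, adjusted p = 0.0158). SURF1, whose loss is a known cause of complex IV deficiency, rose in J82 by 0.69 ± 0.16 (adjusted p = 0.0164), and COX20 fell there by 0.69 on the log2 scale with the same error (adjusted p = 0.0164). Among 3 measured ATP synthase assembly factors ATPAF1, a chaperone of the beta subunit, rose in J82 (0.69 ± 0.16, adjusted p = 0.0136). That is 33.3% of this short list, against 8.18% of all genes.

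Of 11 coenzyme Q synthesis genes, PDSS1, which makes the side chain of coenzyme Q, fell in both lines (-0.72 ± 0.19 in J82, adjusted p = 0.0297, and -0.87 ± 0.19 in RT112, adjusted p = 0.00936, or -0.84 without replicate 1). COQ9 rose in J82 (0.72 ± 0.13, adjusted p = 0.00395). That made 2 of 11 genes in J82 and 1 in RT112 (18.2% and 9.09%, against 8.18% and 8.48% of all genes). Without RT112 palbociclib replicate 1 the counts were 4 and 2, where 10.8% and 13.2% of all genes passed. Of 16 measured genes of the tricarboxylic acid cycle and pyruvate dehydrogenase, 3 rose in J82 (IDH3B 0.96, SUCLG2 0.58 and PDHX 0.53) and none passed in RT112 (18.8% and 0, against 8.18% and 8.48% of all genes). Without RT112 palbociclib replicate 1, 4 passed in J82 and 2 were higher in RT112 (IDH3B 0.56 and OGDH 0.76), where 10.8% and 13.2% of all genes passed. Cytochrome c (CYCS), the carrier between complexes III and IV, fell in RT112 (-0.99 ± 0.24, adjusted p = 0.0198; -1.06 without replicate 1). COX7A2L, which links complexes III and IV into supercomplexes, rose there (0.70 ± 0.16, adjusted p = 0.0142; 0.68 without replicate 1). These were 2 of 4 measured subunits and carriers outside the symbol rule, where 8.48% of all genes passed in RT112. None of the 4 passed in J82.

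Of 16 measured regulators of mitochondrial gene expression, 2 rose and 1 fell in J82 and 2 fell in RT112 (18.8% and 12.5%, against 8.18% and 8.48% of all genes). The responses of TFAM and PPARGC1A differed between the lines past the threshold. TFAM, which packages and transcribes mitochondrial DNA, read 7.28, 7.15 and 6.71 against 7.40, 7.75 and 7.83 in J82 (0.61 ± 0.17, adjusted p = 0.0444) and 8.31, 8.11 and 8.24 against 7.31, 7.73 and 7.61 in RT112 (-0.67 ± 0.17, adjusted p = 0.0281). It rose in one line and fell in the other, and the difference between responses was -1.28 ± 0.25 (adjusted p = 0.00697). Without RT112 palbociclib replicate 1 the RT112 value was -0.55, no longer past the threshold. PPARGC1A, a coactivator of mitochondrial biogenesis, rose in J82 from 7.12, 7.31 and 7.59 to 8.27, 8.34 and 8.15 (0.91 ± 0.13, adjusted p = 0.000694). In RT112 it read 4.57 to 4.81 on all 6 arrays, below the median gene, with a difference of 0.06. The difference between responses was -0.86 ± 0.18 (adjusted p = 0.0143). GABPB1, a subunit of GABP, fell by 0.69 on the log2 scale in each line (adjusted p = 0.0125 in J82 and 0.0123 in RT112; -0.57 in RT112 without replicate 1, still past the threshold). The other 13 measured regulators did not pass the threshold in either line.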

How the data were processed

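Per the labels' protocols, biotin-labelled material from total RNA was hybridised to Affymetrix whole-transcript arrays. The authors deposited log2 signals per probe set, with 70523 rows for 18 arrays, made with RMA and Affymetrix Expression Console per the submitters' processing notes (no version). No genome build was named in the labels or headers used here. Values exceed the log2 limit of a 16-bit scan, so the authors' scale was stretched by a step that is not stated. Detection p-values were not used here, and no intensity filter was set.

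Groups came from the labels. Of 67528 transcript clusters, 23781 had 1 symbol in the platform annotation. The row with the highest mean was kept for the 479 symbols with several rows (NDUFB2 among the members), which left 22465 genes. The 12 arrays entered 1 fit of group means in limma 3.58.1 (R 4.3.3), with an intensity trend in eBayes and 8 residual degrees of freedom. The Benjamini-Hochberg adjustment ran over all genes, with a threshold of 0.05. The fit was also run on simulated data with independent noise of equal spread on all arrays. That run cannot show how the fit handles an outlying array or shared deviations. Contrasts were palbociclib minus control per line, their difference, and the controls. Per the labels' protocols the 3 samples of a group came from different dishes, so p-values measure the spread between dishes, which may be technical.

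The genes, and the 21 pathway and 5 marker lists, were chosen with earlier results of these data known. Named are all members called for the drug, the extremes of each complex in each line, the 5 highest and 5 lowest called between controls, all SDH genes, the restricted complex IV forms, and up to 4 called genes a list. Genes named for the shared deviation were chosen after their values were seen. Alternatives were a replicate block, other scalings, bright genes only, other rows, other variance models, array weights, lines alone, a minimum size and each array left out. Same-numbered deviations of control and treated arrays correlated at 0.17, 0.19 and 0.08 in J82 and 0.09, -0.19 and 0.17 in RT112, so the numbers were not treated as pairs.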

Additional observations from a re-analysis of the deposited data

Results flagged for a closer look

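Considered here were the named subunits and the other pathway-list genes called in J82 or RT112, with the E2F-driven genes left aside. Over all genes 4.57% passed a test of the difference itself (RT112 minus J82, limma, adjusted over 22465 genes). Of the genes left aside, all 10 E2F-driven genes passed, as did 1 tricarboxylic acid cycle gene called in neither line. In the selection the response of 4 genes differed between the lines by that test. Among the subunits this was NDUFA6, at -1.02 (adjusted p = 0.0113), with all 3 treated arrays above the controls in J82 and below them in RT112. CMC2, a complex IV assembly factor, had -1.30 (adjusted p = 0.0158), with all treated RT112 arrays below the controls and overlapping groups in J82. TFAM had -1.28 (adjusted p = 0.00697), with treated arrays above all controls in J82 and below all controls in RT112. PPARGC1A had -0.86 (adjusted p = 0.0143), and its RT112 level lay below the median gene of the array. Groups of 3 arrays were not screened for single outlying arrays gene by gene.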

How the results depend on the processing

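NDUFB5 in J82 passed the threshold under all 23 alternatives run, with differences of 1.52 to 1.96 and adjusted p up to 0.0166, and NDUFA6 did so for the difference between lines under all 22 (-1.12 to -0.91, adjusted p up to 0.0448). No result changed its direction past the threshold. The other counts are small and moved. In J82 (2 members called) 1 was called with a replicate block, with arrays shifted to one median, with all transcript cluster rows tested, with array weights and with the line fitted alone, 5 with a second quantile normalization and 5 among bright genes only, and 1 to 4 with each array left out in turn. In RT112 (5 called) the count was 2 with the replicate block and 2 after the median shift. It was 1 with all rows and 3 with the line alone. With array weights it was 16, 5 higher and 11 lower, with a weight of 0.113 for palbociclib replicate 1. That setting also raised the RT112 calls over all 22465 genes, to 3236 higher and 2544 lower. Leaving out arrays gave 0 to 8: 0 without control 1, control 2, palbociclib 2 or palbociclib 3, 1 without control 3, 8 without palbociclib 1, and 3 without J82 control 2 or 3. For the difference between lines (1 called) array weights gave 4, each left-out array 1 to 2, and the replicate block 1. Between controls (23 called) left-out arrays gave 15 to 26, with 15 without RT112 control 3, and the other alternatives 16 to 30 (26 higher and 4 lower after quantile normalization, against 16 and 7). A block within lines gives no value for the controls. The complex II median in RT112 was 0.46 without palbociclib 1 and 0.07 without palbociclib 2, and that of complex III in J82 was 0.15 without control 3. Causes of these changes were not tested. In the labels same-numbered samples share only a number. Each J82 control deviated most like the treated array of its own number, but RT112 controls 2 and 3 did not. Whether arrays of the same number share a batch was not tested. Over all genes the shift to one median moved the J82 calls from 1213 higher and 624 lower to 830 and 695. Those of RT112 moved from 1112 and 793 to 632 and 794. The second quantile normalization gave 1226 higher and 1075 lower in J82, and 3831 and 3500 between controls. Among the 11232 bright genes 1427 were higher and 715 lower in J82. Array weights gave 1223 higher and 1161 lower for the difference between lines.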
